A study of Homo sapiens with 12 samples.

Results

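The transcripts described here are those of 10 genes that make, carry and load the peptides shown to T cells: the peptide transporter subunits TAP1 and TAP2, the loading factor TAPBP, the inducible proteasome subunits PSMB8, PSMB9 and PSMB10, the class I light chain B2M, the transactivators NLRC5 and CIITA, and the class II invariant chain CD74. Every probe set that the platform's gene table pairs with 1 of these symbols was taken, which gave 39 of the 49395 probe sets on the array and 10 of the 18132 genes that have a probe set of 1 symbol. They were measured in THP-1 cells, a human monocytic leukaemia line, on 12 Affymetrix PrimeView arrays that fall into 4 groups of 3. In the temperature experiment, cells turned macrophage-like by 100 ng/ml of the phorbol ester PMA for 48 hours were then held at the fever-like 40 °C or at 37 °C. The growth protocol gives harvests of the warmed cells at 2, 8 and 24 hours, and which of these the arrays hold is not stated. In the other experiment, cells differentiated at 40 °C received a hairpin inhibitor of a thermomiR, a microRNA whose level answers to temperature, together with a GFP plasmid by nucleofection and were sorted for GFP 24 hours later, and they were set against controls whose titles say WT. By the protocols, therefore, the inhibitor arrays, the control arrays and the arrays of 40 °C cells all hold PMA-treated cells kept at 40 °C. Titles call the inhibitor siRNA. No label of the arrays names the microRNA that it blocked or says whether the controls received the control inhibitor. All of this is 1 cell line, and transcripts alone were measured, neither the microRNAs nor the proteins.

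Values are log2 expression as deposited, and a gene is represented by its brightest probe set unless another is named. A call is a Benjamini-Hochberg adjusted p under 0.05 in limma over 13909 genes, those with a mean log2 value of at least 4.48, which is the 30th percentile over the non-control probe sets. All 10 genes passed that filter, and 4 of their 39 probe sets lay below its value. Array medians were 5.72 to 5.87, and arrays of 1 group correlated at r = 0.9939 to 0.9984 over the probe sets. Separate cultures are not named in any label, so the p-values weigh array-to-array spread that may be technical, and having 3 arrays a group limits the precision. Of the monocyte and macrophage markers, 7 of 8 have a probe set of 1 symbol and all 7 lay above the filter, with an average level of 9.76 to 9.87 in the 40 °C arrays, 9.62 to 9.65 in the 37 °C arrays, 8.89 to 9.01 in the inhibitor arrays and 9.76 to 9.81 in the control arrays. The markers of other cells that lay above the filter were 3 of 6 for lymphocytes, 4 of 7 for dendritic cells, 1 of 4 for erythroid cells and 5 of 8 for fibroblasts and epithelium, and the highest average level of any of these lists on any array was 5.94. Single markers in them were higher than that average. Over the 12 arrays NCAM1 lay at 9.08 to 10.19, FLT3 at 7.64 to 8.29 and the erythroid GATA1 at 6.17 to 6.77. CCR7 lay at 6.71 to 7.14 in the inhibitor and control arrays, and PDGFRB and CD79A reached 6.21 and 6.15 at most. The dendritic cell marker LAMP3, below the filter and not tested, averaged 5.98 in the control arrays. It averaged 3.99 in the inhibitor, 3.83 in the 40 °C and 3.73 in the 37 °C arrays. In such bulk samples, fewer cells of a type and less RNA per cell cannot be told apart.

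Cells show fragments of their own proteins on MHC class I molecules. The proteasome cuts the proteins, the TAP transporter carries the peptides into the endoplasmic reticulum, and tapasin (TAPBP) holds TAP beside the class I heavy chain and B2M until a peptide binds. Interferon makes cells replace the constitutive catalytic subunits of the proteasome with PSMB8, PSMB9 and PSMB10, and NLRC5 drives transcription of class I genes. MHC class II molecules, which macrophages use to show engulfed material, depend on CIITA for their transcription and on CD74 to guard their groove.

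The promoters of these genes are shown because TAP1 and PSMB9 start from facing ends of a short stretch of chromosome 6. Whether this arrangement has a part in the results was not tested. The start of TAP1 on the minus strand and the start of PSMB9 on the plus strand are 487 bases apart. Windows from 250 bases before to 50 bases after each start, from RefSeq on GRCh38.p14, overlap by 13 bases there. TAP2 and PSMB8 lie beside this pair in the class II region of the major histocompatibility complex. The windows of TAP1 (its second listed start, chr6:32853655-32853954, minus strand) and PSMB9 (chr6:32853942-32854241, plus strand) follow, each written 5′ to 3′ on the strand of its gene. Capitals mark matches to the core of the interferon-stimulated response element, GAAANNGAAA on either strand.
TAP1: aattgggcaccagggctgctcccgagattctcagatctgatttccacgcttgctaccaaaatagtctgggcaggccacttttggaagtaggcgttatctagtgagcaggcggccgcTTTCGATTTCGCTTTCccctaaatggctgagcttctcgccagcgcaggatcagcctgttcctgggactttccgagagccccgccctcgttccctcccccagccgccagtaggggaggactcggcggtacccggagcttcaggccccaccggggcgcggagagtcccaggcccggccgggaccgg
PSMB9: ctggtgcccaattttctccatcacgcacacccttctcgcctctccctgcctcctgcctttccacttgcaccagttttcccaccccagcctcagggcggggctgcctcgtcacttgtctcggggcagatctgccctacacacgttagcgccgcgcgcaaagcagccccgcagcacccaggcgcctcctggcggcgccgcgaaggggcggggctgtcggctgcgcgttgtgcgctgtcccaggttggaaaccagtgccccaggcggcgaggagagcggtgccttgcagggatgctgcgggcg
The TAP1 window holds a pair of overlapping matches, from 134 to 119 bases before the start, on the strand opposite to the gene and between the starts of TAP1 and PSMB9. The PSMB9 window holds none.

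That core was present in the windows of 6 of the 8 genes that the promoter table holds, TAP1, TAP2, TAPBP, PSMB8, PSMB10 and B2M, and not in those of PSMB9 and CD74. Of 27303 genes with a window, 4.38% held it, as did 3.57% of the 35114 windows. The matches of the other 5 genes are shown with their flanks, again 5′ to 3′ on the strand of the gene, and lie at chr6:32838773-32838812 (TAP2, minus strand), chr6:32844027-32844066 (PSMB8, first listed start, minus strand), chr6:33314068-33314113 (TAPBP, minus strand), chr16:67936847-67936886 (PSMB10, minus strand) and chr15:44711358-44711403 (B2M, plus strand).
TAP2: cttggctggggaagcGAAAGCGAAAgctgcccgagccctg
PSMB8: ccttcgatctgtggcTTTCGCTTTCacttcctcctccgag
TAPBP: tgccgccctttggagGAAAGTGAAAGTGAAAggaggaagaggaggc
PSMB10: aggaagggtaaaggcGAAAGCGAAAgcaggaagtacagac
B2M: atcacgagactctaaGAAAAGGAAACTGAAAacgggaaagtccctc
TAP2 and PSMB10 carry the same 10 letters within the match, and TAPBP and B2M carry overlapping pairs as TAP1 does. PSMB8 carries its match on the opposite strand, across the start itself. The core of the gamma-activated site, TTCNNNGAA, was present in the first listed windows of TAP1 and PSMB8 (7.66% of all windows). The CCAAT box on either strand was present in the TAP1 window printed above and in the windows of PSMB9, B2M and CD74 (34.6%). Those of TAP1 and PSMB9 are the same bases, read on opposite strands where the windows overlap. A heat shock element, GAANNTTCNNGAA, was found in 0.49% of all windows and in none of the 8 genes. A match is a run of letters only: whether any protein binds there was not measured, and no link between matches and differences in level was tested.

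**Figure D1:**
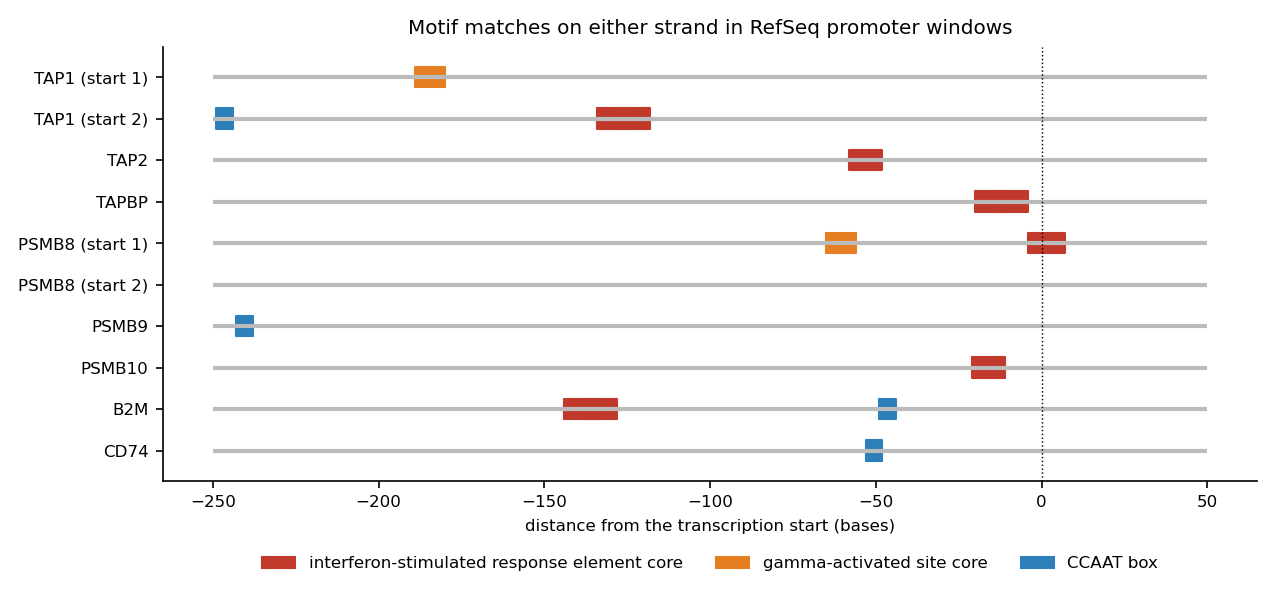
Motif matches in the RefSeq windows of the 8 genes, plotted as distance in bases from the transcription start (dotted line at 0), with 1 row per listed start and 1 colour per motif. Matches to the interferon-stimulated response element core lie in windows of 6 genes, and neither PSMB9 nor CD74 has one.

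The first comparison asked how these transcripts differ at fever-like temperature. At 40 °C against 37 °C, 3 of the 10 genes rose (TAP1, TAP2 and PSMB9), 3 fell (PSMB10, NLRC5 and CD74), and TAPBP, PSMB8, B2M and CIITA were not called. Among all genes tested, 21.6% were called higher and 17.7% lower, so 3 of 10 in either direction is not far from the background at this number of genes. Leaving out any 1 array left 3 higher and 2 lower. The median log2 difference was 0.04 for the 10 genes and 0.01 for all genes tested. The monocyte and macrophage markers moved in this comparison too, 5 of 7 higher and 1 lower with a median difference of 0.24, and the dendritic cell marker FLT3 was lower (−0.40, adjusted p = 0.000268). Their part in the results was not tested.

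The peptide transporter rose in both its subunits. TAP1 read 11.65, 11.52 and 11.53 in the 40 °C arrays and 11.28, 11.34 and 11.26 in the 37 °C arrays. All 3 warmed arrays lay above all 3 others, a log2 difference of 0.27 (SE 0.05, limma adjusted p = 0.00426) or 1.21-fold. Its second, dimmer probe set gave 0.35 (SE 0.06, adjusted p = 0.00333 over all probe sets).

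TAP2, its partner in the transporter, read 10.71, 10.78 and 10.67 at 40 °C against 10.25, 10.28 and 10.29 at 37 °C. It rose by 0.45 (SE 0.05, adjusted p = 0.00022), or 1.36-fold, with no overlap. Its 4 probe sets did not move together. A pair of dimmer ones also rose, by 0.46 each, whereas the probe set that the array ties to a RefSeq transcript record fell, reading 8.42, 8.40 and 8.41 at 40 °C against 8.90, 8.97 and 8.93 at 37 °C (−0.52, SE 0.05, adjusted p = 0.000253 over all probe sets). TAP2 is known to be made in forms with different last exons, and which form each probe set reads was not determined here, so the rise holds for 3 of the 4 probe sets. The mean of the 4 rose by 0.21 (adjusted p = 0.00566), less than the brightest alone and less than the means of TAP1 (0.31) and PSMB9 (0.26).

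Tapasin did not differ beyond its spread. TAPBP read 11.20, 11.17 and 11.09 at 40 °C against 11.17, 11.24 and 11.18 at 37 °C, overlapping groups with a difference of −0.04 and a 95% interval of −0.16 to 0.07, and none of its 5 probe sets was called. The class I light chain B2M read 14.06, 14.05 and 14.11 at 40 °C against 14.11, 14.01 and 14.08 at 37 °C, a difference of 0.01 (95% interval −0.10 to 0.12). Its 8 probe sets, 1 of them identical to another, averaged 12.6 to 13.9 over the 12 arrays, close to the highest values of each array (14.3 to 14.4), and none was called.

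The inducible proteasome subunits went different ways. PSMB9, the β1i subunit, read 11.67, 11.69 and 11.57 at 40 °C against 11.38, 11.41 and 11.37 at 37 °C, higher on every warmed array, by 0.26 (SE 0.05, adjusted p = 0.00393) or 1.20-fold. All 3 of its probe sets were called higher, by 0.20 to 0.33. PSMB10, the β2i subunit, read 10.49, 10.47 and 10.38 at 40 °C against 10.83, 10.85 and 10.80 at 37 °C. It was lower on every warmed array, by a log2 difference of −0.38 (SE 0.05, adjusted p = 0.000527) or 1.30-fold, and all 3 of its probe sets were called lower, at −0.31 to −0.38. PSMB8, the β5i subunit, read 12.48, 12.50 and 12.48 at 40 °C against 12.37, 12.37 and 12.41 at 37 °C. The groups did not overlap, yet the difference of 0.10 (SE 0.04, 95% interval 0.01 to 0.20) missed the threshold at an adjusted p of 0.0854. It passed with trend and robust eBayes (adjusted p = 0.0023), and its second probe set was called higher at 0.17 (SE 0.05, adjusted p = 0.0482 over all probe sets).

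Of the transactivators, NLRC5 read 8.75, 8.75 and 8.80 at 40 °C against 8.95, 8.94 and 8.91 at 37 °C, below all 37 °C arrays by a small step of −0.17 (SE 0.04, adjusted p = 0.0157) or 1.12-fold. The call was lost without replicate 1 at 37 °C (−0.16, adjusted p = 0.0591). The dimmer NLRC5 probe set differed by −0.19 and was not called. CIITA read 6.15, 6.18 and 6.41 at 40 °C against 6.14, 6.11 and 6.26 at 37 °C, overlapping groups with a difference of 0.08 (95% interval −0.10 to 0.26), and a pair of its 4 probe sets averaged 3.22 and 3.38, well under the value of the filter. The invariant chain CD74 read 6.88, 6.91 and 6.77 at 40 °C against 6.98, 7.21 and 7.04 at 37 °C, lower without overlap by −0.22 (SE 0.07, adjusted p = 0.0367). That call was lost without replicate 1 (adjusted p = 0.0673), 2 (0.0534) or 3 (0.116) at 40 °C and without replicate 2 (0.0894) or 3 (0.0629) at 37 °C, with differences of −0.16 to −0.25. Tested on its own over all probe sets the same probe set missed the threshold (adjusted p = 0.0649), while 3 of the other 4 CD74 probe sets were called lower, at −0.19 to −0.41.

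**Figure D2:**
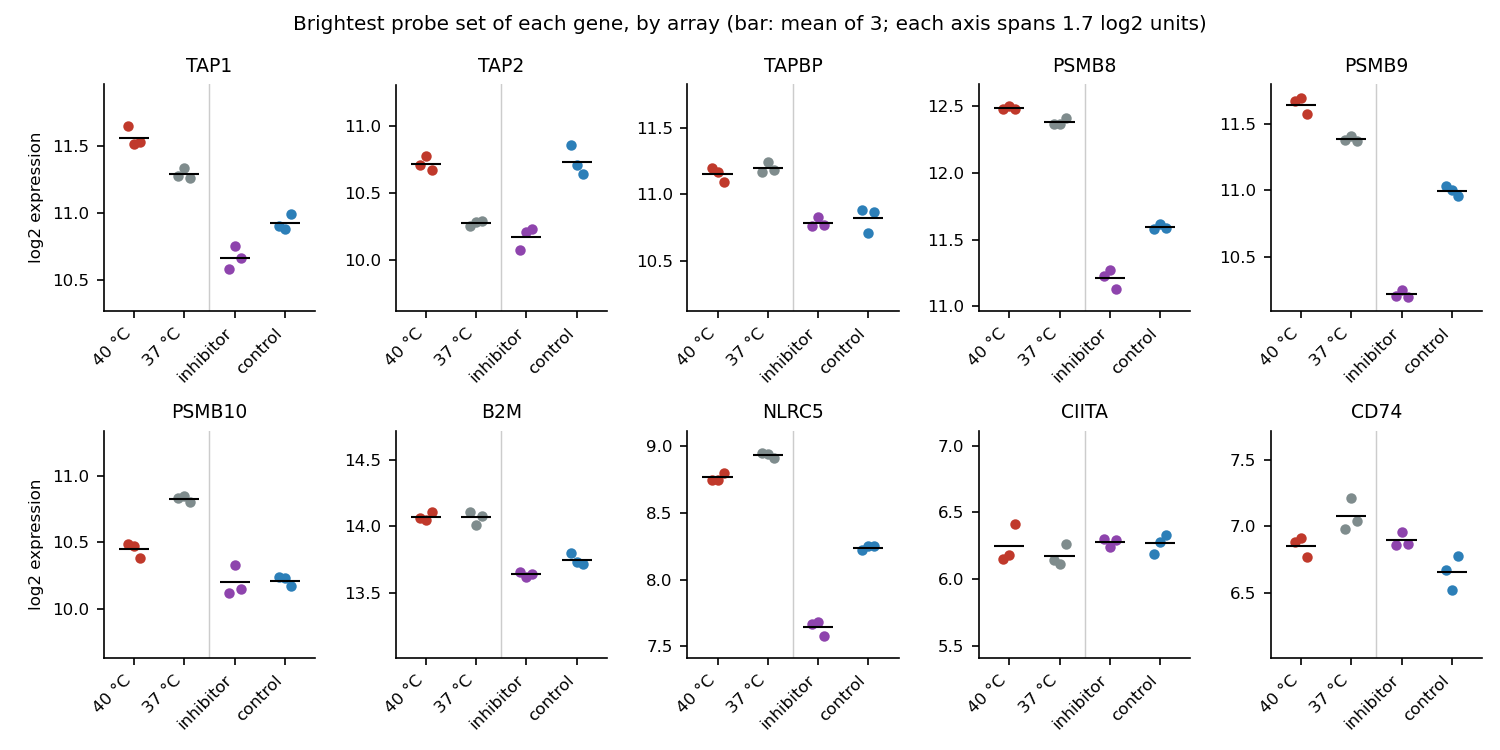
Log2 expression of the brightest probe set of each of the 10 genes on each of the 12 arrays (points, 3 per group), with the group mean as a bar; each vertical axis spans 1.7 log2 units but starts at a different level, and the grey line parts the experiments. The 40 °C points lie above the 37 °C points for TAP1, TAP2 and PSMB9 and below them for PSMB10, NLRC5 and CD74, and the inhibitor points lie below the control points for TAP1, TAP2, PSMB8, PSMB9, B2M and NLRC5.

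Counted by probe set, 9 of the 39 were called higher at 40 °C, 8 lower and 22 not called, against 12.8% of the 49293 non-control probe sets called higher and 11.8% lower. The 9 belong to TAP1 (2), TAP2 (3), PSMB8 (1) and PSMB9 (3), and the 8 to TAP2 (1), PSMB10 (3), NLRC5 (1) and CD74 (3). Probe sets of 1 gene read the same RNA and are not replicates of each other. When the fit also held each array's poly-A spike level, TAP1 (0.20, adjusted p = 0.155), PSMB9 (0.16, 0.169) and NLRC5 (−0.15, 0.206) lost their calls. TAP2, PSMB10 and CD74 kept theirs. These spikes, bacterial RNAs added before labelling, averaged 7.77 ± 0.04 at 40 °C and 7.68 ± 0.04 at 37 °C (SD, n = 3 each). The groups met only at 7.73 (40 °C replicate 3 and 37 °C replicate 2), so this fit separates spike level from temperature poorly.

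The second comparison asked what differs when a thermomiR is blocked in cells kept at 40 °C. The inhibitor arrays had lower levels of the transporter, of 2 inducible proteasome subunits and of NLRC5. Of the 10 genes, 5 fell (TAP1, TAP2, PSMB8, PSMB9 and NLRC5), CD74 rose, and TAPBP, PSMB10, B2M and CIITA were not called. Over all genes tested, 25.7% were called higher and 19.6% lower, so 5 of 10 lower is above that share and 1 of 10 higher below it, as a description with no test of its own. The median difference was −0.19 for the 10 and 0.09 for all genes. Leaving out 1 array at a time gave 4 to 5 lower and 0 to 1 higher. The spikes also differed between these groups, at 5.83 ± 0.27 with the inhibitor and 7.07 ± 0.35 in controls (SD, n = 3 each), and with the spike level as a covariate none of the 10 was called, and only 52 genes higher and 184 lower over the array. The differences themselves were then −0.31 for TAP1, −0.74 for TAP2, −0.22 for PSMB8, −0.48 for NLRC5 and 0.05 for CD74 (limma adjusted p = 0.458, 0.151, 0.533, 0.193 and 0.93). Every inhibitor array had a lower spike level than every control array, so this fit cannot separate spike level from inhibitor. No conclusion is drawn from the lost calls or from the sizes of these differences. The monocyte and macrophage markers moved as well, 5 of 7 lower and 1 higher with the inhibitor, among them LYZ by −2.34, FCGR1A by −1.46, CD14 by −0.79 and ITGAM by −0.76 on the log2 scale, and their part in the results was not tested. The lymphocyte marker NCAM1 was higher, at 10.11 ± 0.10 with the inhibitor and 9.13 ± 0.05 in controls (SD, n = 3 each; 0.98, adjusted p = 5.23e-05).

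By brightest probe set, PSMB9 had the largest difference of the 10. It read 10.21, 10.25 and 10.20 in the inhibitor arrays against 11.03, 11.00 and 10.96 in the control arrays, so the gap between the groups was many times the spread within either. The difference was −0.78 (SE 0.05, adjusted p = 5.32e-05). With the spike covariate, which cannot be separated from the inhibitor here, it was −0.75 with an adjusted p of 0.0844. Its second probe set fell by 0.87, whereas its faintest, at 5.51 ± 0.07 with the inhibitor and 5.33 ± 0.20 in controls, differed by 0.18 and was not called (SD, n = 3 each). The mean of its 3 probe sets differed by −0.49, behind those of NLRC5 (−0.61) and TAP2 (−0.60). PSMB8 read 11.23, 11.27 and 11.13 with the inhibitor against 11.58, 11.62 and 11.59 in controls. It was lower on every inhibitor array, by −0.39 (SE 0.06, adjusted p = 0.00172), and all 3 of its probe sets were called lower, though 1 of them averaged only 4.10 over the 12 arrays. PSMB10 read 10.12, 10.33 and 10.15 with the inhibitor against 10.24, 10.23 and 10.17 in controls, overlapping groups with a difference of −0.01 (95% interval −0.18 to 0.16), and none of its 3 probe sets was called.

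TAP2 read 10.07, 10.21 and 10.23 with the inhibitor against 10.86, 10.71 and 10.64 in controls. The groups did not overlap, and the difference was −0.57 (SE 0.08, adjusted p = 0.00105) or 1.48-fold. Here all 4 probe sets had lower means, at −0.90 to −0.23, and 3 were called; the 1 that was not (adjusted p = 0.0759) is the probe set that had gone against the others at 40 °C. TAP1 read 10.58, 10.75 and 10.66 with the inhibitor against 10.90, 10.88 and 10.99 in controls, a smaller step of −0.26 (SE 0.07, adjusted p = 0.0167). The TAP1 call was lost without inhibitor replicate 1 (−0.22, adjusted p = 0.0634) and without control replicate 3 (−0.23, adjusted p = 0.0707), and its second probe set, with overlapping groups, was not called (−0.16). TAPBP read 10.76, 10.83 and 10.77 with the inhibitor against 10.88, 10.71 and 10.87 in controls and did not differ beyond its spread (−0.03, 95% interval −0.19 to 0.13). Of its other probe sets 1 was called lower, at 6.87, 7.08 and 6.62 with the inhibitor against 7.37, 7.27 and 7.42 in controls (−0.50, adjusted p = 0.0148 over all probe sets).

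NLRC5 read 7.67, 7.68 and 7.58 with the inhibitor against 8.22, 8.25 and 8.25 in controls. All inhibitor arrays lay well below all control arrays (−0.60, SE 0.06, adjusted p = 0.000194), and both of its probe sets were called lower. B2M, a class I gene that NLRC5 is known to drive, read 13.66, 13.62 and 13.64 with the inhibitor against 13.80, 13.73 and 13.72 in controls. Its groups did not overlap, but the difference of −0.11 (95% interval −0.24 to 0.02) was not called (adjusted p = 0.146), except with trend and robust eBayes (0.00162), and none of its 8 probe sets was called on its own.

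On the class II side, CIITA read 6.30, 6.24 and 6.29 with the inhibitor against 6.19, 6.28 and 6.33 in controls, overlapping groups with a difference near 0 (0.01, 95% interval −0.13 to 0.15). CD74 read 6.86, 6.96 and 6.87 with the inhibitor against 6.67, 6.52 and 6.78 in controls, higher without overlap by 0.24 (SE 0.08, adjusted p = 0.0419). That call was lost under 12 of 17 alternatives, among them leaving out inhibitor replicate 1 (adjusted p = 0.0809), 2 (0.087) or 3 (0.0712) or control replicate 1 (0.0925) or 2 (0.112), with differences of 0.17 to 0.26. Of its 5 probe sets 1 was called higher (0.25, adjusted p = 0.0452 over all probe sets). By probe set, 1 of the 39 was called higher with the inhibitor, 12 lower and 26 not called, against 14.8% and 15.2% of all probe sets.

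**Figure D3:**
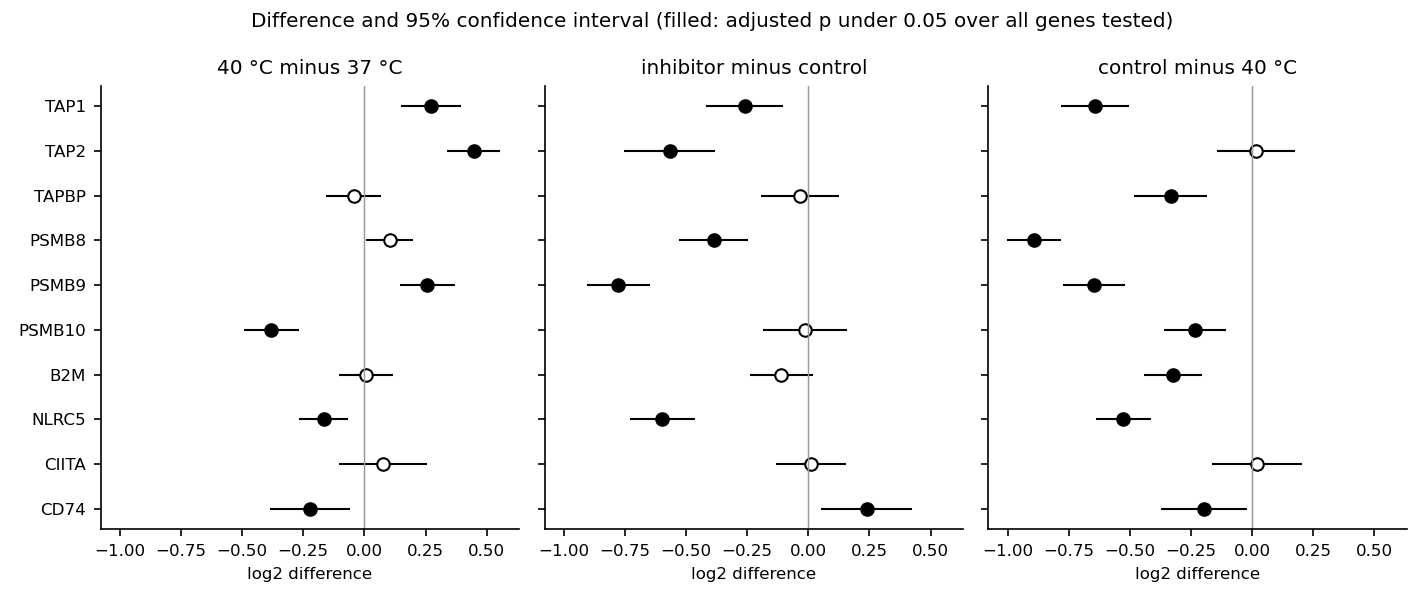
Log2 difference of each of the 10 genes (points) with its 95% confidence interval (lines) for 40 °C minus 37 °C, inhibitor minus control and control minus 40 °C; filled points have an adjusted p under 0.05 over all genes tested. PSMB9 lies at 0.26, −0.78 and −0.65 in the 3 panels, and PSMB10 is filled at −0.38 and −0.23 in the outer panels and open at −0.01 in the middle one.

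**Figure D4:**
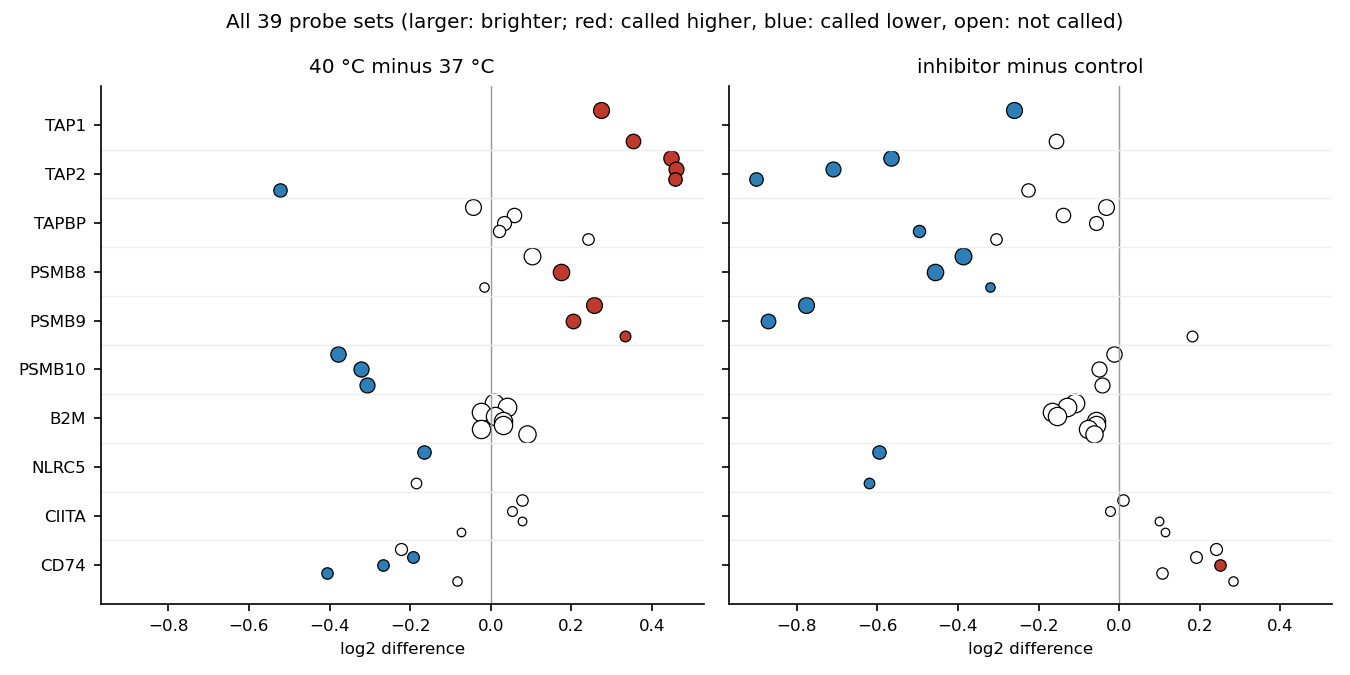
Log2 difference of all 39 probe sets, by gene, for 40 °C minus 37 °C and inhibitor minus control; point size grows with the mean level, red points were called higher, blue points lower and open points not called, over all probe sets. In the left panel 1 TAP2 probe set lies at −0.52 and the other 3 at 0.45 to 0.46, and in the right panel all 4 lie below 0.

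The responses of the 2 experiments share no array, so their difference was tested on its own in 1 fit of all 12 arrays. The response to the inhibitor minus the response to 40 °C was lower for 5 of the 10 genes and higher for 2, against 21.1% lower and 23.1% higher among all genes tested. PSMB9 differed by −1.03 (SE 0.07, adjusted p = 2.66e-07), TAP2 by −1.01 (SE 0.09), TAP1 by −0.53 (SE 0.08) and PSMB8 by −0.49 (SE 0.07). TAP1, TAP2 and PSMB9 were called in both experiments with opposite signs, higher at 40 °C and lower with the inhibitor, while NLRC5 was lower in both and lower by more with the inhibitor (−0.43, SE 0.06, adjusted p = 0.000157). PSMB10 (0.37, SE 0.08, adjusted p = 0.00372) and CD74 (0.46, SE 0.11, adjusted p = 0.00448) were the genes whose inhibitor response lay above their temperature response. TAPBP, B2M and CIITA were not called, with differences of 0.01, −0.12 and −0.07, but the mean of the TAPBP probe sets was (−0.27, adjusted p = 0.0325). The comparison also spans the handling of the 2 experiments, and with the spike level as a covariate 2 of the 7 calls were left, those of TAP2 and PSMB9. The differences that lost their calls were −0.57 for TAP1, −0.32 for PSMB8, −0.31 for NLRC5, 0.50 for PSMB10 and 0.31 for CD74 (adjusted p = 0.0615, 0.134, 0.144, 0.0932 and 0.444). Since inhibitor and control arrays do not overlap in spike level, this fit cannot separate spike level from inhibitor either.

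An induced subunit replaces a constitutive one in the same position of the proteasome, PSMB8 for PSMB5, PSMB9 for PSMB6 and PSMB10 for PSMB7, so each pair was compared within arrays as a log2 ratio. At 40 °C the PSMB9 to PSMB6 ratio was higher than at 37 °C by 0.21, while the PSMB8 to PSMB5 ratio differed by −0.27 and the PSMB10 to PSMB7 ratio by −0.21. The constitutive β5 subunit PSMB5 itself read 11.06, 11.00 and 10.95 at 40 °C against 10.63, 10.66 and 10.61 at 37 °C (0.37, SE 0.05, adjusted p = 0.000557), next to 0.10 for PSMB8. PSMB7 fell by 0.17 (SE 0.04, adjusted p = 0.0115), next to −0.38 for PSMB10, and PSMB6 differed by 0.04 and was not called. With the inhibitor the 3 ratios differed from those of controls by −0.40 for PSMB8 to PSMB5, −0.76 for PSMB9 to PSMB6 and −0.14 for PSMB10 to PSMB7. None of the constitutive subunits was called there, with differences of 0.02 for PSMB5, −0.02 for PSMB6 and 0.12 for PSMB7. In all 6 cases the groups did not overlap, and the exact permutation test (two-sided) gave p = 0.1, the smallest that 3 arrays against 3 allow. How often the ratios of other gene pairs part the groups was not counted, so these 6 have no background to be set against. A ratio within an array shows unequal change of its members and not that 1 of them is steady. With the mean of the probe sets of each gene in place of the brightest, the inhibitor ratios were −0.31, −0.47 and −0.03.

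Control arrays and 40 °C arrays both hold cells kept at 40 °C by the protocols, but they differ in nucleofection, sorting and experiment, which cannot be told apart. In controls against 40 °C cells, 8 of the 10 genes were lower and none higher, where 37.9% of all genes tested were called lower and 36.9% higher. Of the 4 dendritic cell markers tested, 1 was higher and 2 were lower. CCR7 was 9.28-fold higher in controls, at 7.06 ± 0.08 against 3.84 ± 0.12 at 40 °C (SD, n = 3 each). CD1A (−0.46) and FLT3 (−0.18) were lower. Of the 7 monocyte and macrophage markers, 4 were higher and 3 lower, among them CD68 at 1.41 and CD14 at −1.79. The part of all these markers in the results was not tested. This comparison shares the control arrays with the inhibitor comparison and the 40 °C arrays with the temperature comparison. PSMB8 differed by −0.89 (SE 0.05, adjusted p = 8.97e-07), PSMB9 by −0.65 and TAP1 by −0.64 (SE 0.06 each). NLRC5 differed by −0.53, TAPBP by −0.33, B2M by −0.32 and PSMB10 by −0.23, all without overlap. With the mean of the probe sets of a gene, PSMB8 differed by −0.42, since its faintest probe set was higher (0.47), PSMB10 by −0.35, and TAPBP lost its call (−0.09, adjusted p = 0.123). PSMB10 lost its call with the spike level as a covariate (−0.21, adjusted p = 0.14). Every control array had a lower spike level than every 40 °C array, so that fit cannot separate spike level from group. CD74 (−0.20, adjusted p = 0.0445) had overlapping groups, and its call was lost without control replicate 1 (adjusted p = 0.0738) or 2 (0.126) and without 40 °C replicate 1 (0.111) or 2 (0.131). TAP2 (0.02, 95% interval −0.14 to 0.18) and CIITA (0.02) were not called, but averaging the 4 TAP2 probe sets gave a call of lower (−0.14, adjusted p = 0.0346). Tested each on its own, 3 of the 4 CIITA probe sets were called higher in controls, at 0.21 to 0.66. The largest of these differences had a limma adjusted p of 3.41e-05 over all probe sets, and all 3 probe sets were fainter than the brightest.

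By brightest probe set, the order of the 4 groups was as follows. TAP1, PSMB8 and PSMB9 were highest at 40 °C, then at 37 °C, then in controls and lowest with the inhibitor, with no overlap between any neighbours. NLRC5 kept the same order except that 37 °C came above 40 °C, again with every neighbour apart. The highest and lowest group means lay 1.42 apart for PSMB9, 1.29 for NLRC5, 1.28 for PSMB8 and 0.90 for TAP1. Other probe sets of TAP1, PSMB8 and PSMB9 did not all keep this order. The 37 °C and control arrays overlapped on the second PSMB9 probe set, and the inhibitor and control arrays on the second of TAP1. On the faintest PSMB9 probe set the inhibitor mean lay above that of controls, and on the faintest of PSMB8 controls were highest. How many of all genes tested have every neighbour apart was not counted. PSMB10 was highest at 37 °C, then at 40 °C, with controls and inhibitor cells overlapping below. TAPBP and B2M each had the 40 °C and 37 °C cells overlapping at the top, and below them came controls and then inhibitor cells, which overlapped for TAPBP and were apart for B2M. TAP2 alone of the 10 had controls and 40 °C cells together at the top, 37 °C below them and the inhibitor lowest. Not all TAP2 probe sets kept this order. On a dimmer one controls lay apart below 40 °C (10.14 against 10.44). On the one that fell at 40 °C, 37 °C was highest (8.93), above 40 °C (8.41) and controls (8.20). CD74 was highest at 37 °C, with the other groups overlapping their neighbours. CIITA showed no order on its brightest probe set, with every neighbouring pair overlapping within 0.11. A fainter CIITA probe set read 4.30 ± 0.06 at 40 °C and 4.25 ± 0.20 at 37 °C, against 4.94 ± 0.18 with the inhibitor and 4.96 ± 0.07 in controls (SD, n = 3 each).

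The rest of the pathway was read through 7 lists of other genes, of which 62 were tested. At 40 °C against 37 °C, 14 of the 62 were higher and 12 lower, and with the inhibitor against controls 8 were higher and 15 lower, next to the shares of all genes given above.

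Among MHC class I heavy chains, 2 of 7 were called higher at 40 °C and none lower, with a list median of 0.06. MR1, which shows microbial vitamin metabolites to innate-like T cells, read 8.75 ± 0.07 at 40 °C and 8.17 ± 0.11 at 37 °C (SD, n = 3 each), and CD1D, which shows lipids, rose by 0.24. The classical chains HLA-B and HLA-C differed by 0.06 and 0.02 and were not called. With the inhibitor 0 of 7 heavy chains were called by limma, at a median of −0.10. The smallest unadjusted p-values were 0.0252 for HLA-E (−0.18) and 0.0308 for CD1D (−0.28), the 2 that lay under 0.05. Like-named heavy chains share much sequence, so their probe sets may read each other's RNA.

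Class I loading and trimming factors were lower in 2 of 8 and higher in none at 40 °C (median −0.05), and lower in 4 of 8 and higher in 1 with the inhibitor (median −0.14). TAPBPL, a relative of tapasin that edits peptides, fell at 40 °C to 7.78 ± 0.06 against 8.43 ± 0.07 at 37 °C (−0.65, adjusted p = 8.34e-05; SD, n = 3 each). ERAP1, which trims peptides in the endoplasmic reticulum, fell by 0.38 at 40 °C and by 0.27 with the inhibitor. CALR, the chaperone calreticulin of the loading complex, read 6.80, 6.84 and 6.10 with the inhibitor against 9.15, 8.82 and 9.02 in controls, 5.34-fold lower (adjusted p = 0.000101). Its membrane-bound relative CANX, which folds new heavy chains, rose by 0.48, while PDIA3, the thiol enzyme that works with calreticulin, fell by 0.33 and HSPA5 by 0.23.

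Of the proteasome partners and activators, 2 of 10 were higher and 3 lower at 40 °C (median −0.05), and 1 higher and 1 lower with the inhibitor (median −0.01). The nuclear activator genes went opposite ways at 40 °C, where PSME3 rose by 0.51 and PSME4 fell by 0.46. PSME1 and PSME2, the interferon-induced caps that work with the immunoproteasome, differed by −0.05 and −0.12 at 40 °C and by 0.17 and −0.14 with the inhibitor, and were not called. With the inhibitor PSME4 rose by 0.29 and PSMA1, an outer-ring subunit, fell by 0.39.

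Class II chains and exchange factors were largely faint. Of 10, 8 were tested, and HLA-DRA, the invariant partner of the HLA-DR chains, lay below the filter at 3.90 ± 0.09 at 40 °C, 3.71 ± 0.09 at 37 °C, 3.42 ± 0.24 with the inhibitor and 3.40 ± 0.05 in controls (SD, n = 3 each). HLA-DOB lay below it too. HLA-DMA, which exchanges CD74 fragments for peptides, was the 1 called, lower both at 40 °C (−0.27) and with the inhibitor (−0.42, at levels below the filter value in both groups). Processing enzymes and traffic genes of this route were higher in 5 of 10 and lower in 2 at 40 °C (median 0.15), led by the lysosomal proteases CTSD (0.62), CTSL (0.58) and CTSB (0.53). MARCHF1, a ligase that marks class II molecules for removal, read 5.85, 5.73 and 5.66 at 40 °C against 6.94, 6.79 and 7.01 at 37 °C (−1.17, adjusted p = 2.19e-05). With the inhibitor 2 of these 10 were higher and 3 lower (median 0.02). CTSS, which degrades the invariant chain, fell by 0.43 and CTSD by 0.42, CD9 rose by 0.50, and MARCHF1 was called higher at a level of 2.83 ± 0.03 with the inhibitor against 2.56 ± 0.13 in controls, far below the filter value (SD, n = 3 each).

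The factors that bind class I and class II promoters, RFX and NF-Y, were higher in 2 of 7 and lower in 1 at 40 °C (median 0.05), and higher in 1 and lower in 3 with the inhibitor (median −0.16). RFXAP fell by 0.48 at 40 °C and by 0.50 with the inhibitor, where RFXANK also fell by 0.55 and NFYB by 0.41, while NFYA rose by 0.36. At 40 °C NFYA rose by 0.23 and NFYC by 0.14. RFX5, the third RFX subunit, differed by 0.01 at 40 °C and 0.08 with the inhibitor and was not called.

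Of the genes that carry interferon signals to these promoters, 3 of 12 were higher and 3 lower at 40 °C (median 0.03), and 3 higher and 3 lower with the inhibitor (median 0.06). IRF1, a factor that binds the response element described above, read 8.18, 8.08 and 7.96 at 40 °C against 7.77, 7.76 and 7.68 at 37 °C (0.34, SE 0.06, adjusted p = 0.0039). With the inhibitor it lay above controls by 0.19 without passing the test (adjusted p = 0.0624). Whether IRF1 acts on any of the genes described here was not tested. IRF7, another factor of the family and itself interferon-induced, read 8.99, 9.18 and 9.07 with the inhibitor against 10.74, 10.86 and 10.89 in controls (−1.75, SE 0.07, adjusted p = 8.3e-06). At 40 °C it differed by −0.10 and was not called. IRF8, a myeloid member of the family, differed by 0.05 at 40 °C and −0.08 with the inhibitor, neither called. The kinase gene JAK2 fell in both comparisons, by 0.46 at 40 °C and by 0.73 with the inhibitor. Among receptor genes, IFNAR1 and IFNAR2 fell by 0.48 and 0.26 at 40 °C, whereas IFNGR2 and IFNAR2 rose by 0.57 and 0.46 with the inhibitor.

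**Figure D5:**
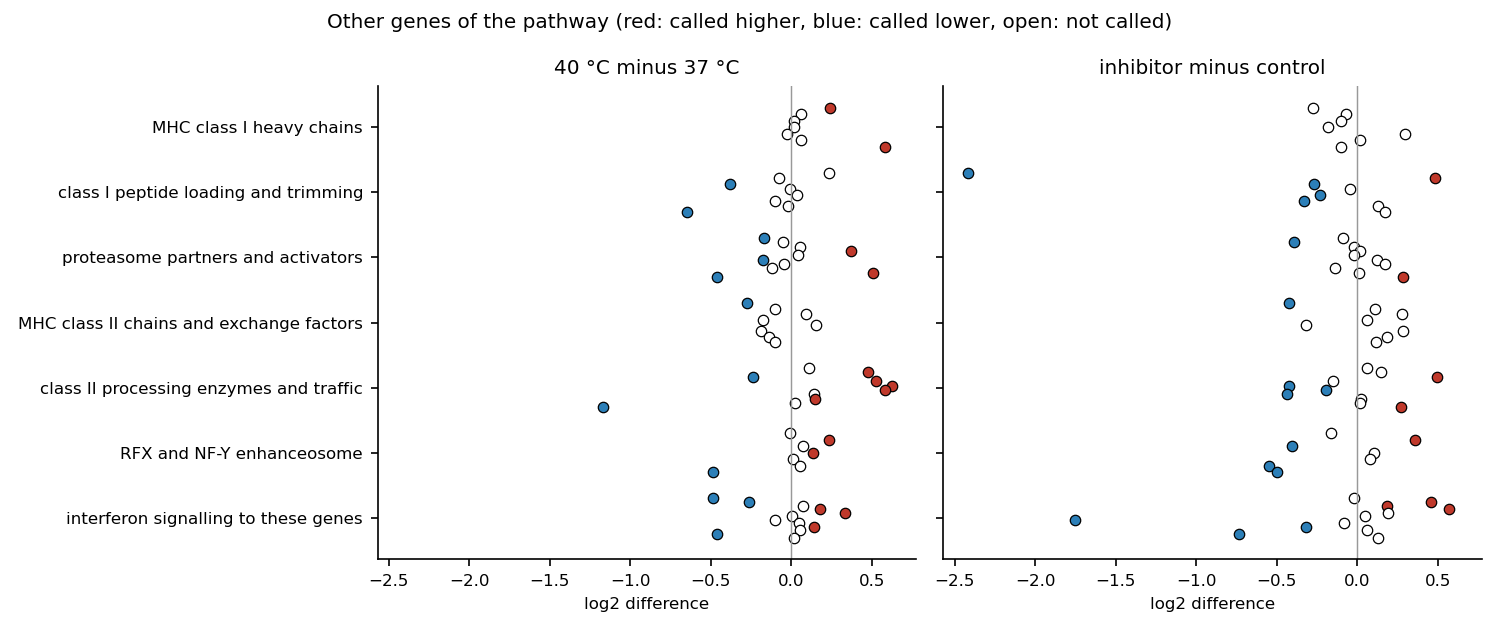
Log2 difference of the 62 tested genes of 7 other lists of the pathway (1 row each), for 40 °C minus 37 °C and inhibitor minus control; red points were called higher, blue points lower and open points not called, over all genes tested. The 2 lowest points of the right panel are CALR at −2.42 and IRF7 at −1.75, and the lowest of the left panel is MARCHF1 at −1.17.

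Likeness to other genes was measured as the root mean square of the log2 difference over the 12 arrays after each gene was centred on its own mean. For TAP1, which varied by 0.35 about its mean on that measure, the 4 nearest genes were MEX3D (0.05), TSPAN14 (0.05), ARHGAP11A (0.05) and PRORP (0.06). Those nearest to PSMB9 (0.54 about its mean) were KNSTRN (0.07), SPP1 (0.09), DOK1 (0.09) and FGGY (0.10). NLRC5 (0.51) was nearest to BTK (0.05), COTL1 (0.07), PGM2 (0.07) and IDH2 (0.08), and CD74 (0.17) to GTPBP4 (0.06), UTP3 (0.07), NOL10 (0.07) and EPC2 (0.07). No gene among the 4 nearest to any of them was itself 1 of the 10. With 13909 genes searched and only 4 listed for each, this does not show whether the 10 vary together.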

How the data were processed

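Transcripts of THP-1 were read on 12 PrimeView arrays, 3 in each of 4 groups given by titles and treatment labels. The values deposited by the authors are log2 expression of 49395 probe sets. Their scale was read from the values themselves; how the authors corrected, normalized and summarised them, and with which software or genome build, is not given in the sources used here. Gene names come from the gene table of the platform, and each gene stands for its probe set of 1 symbol with the highest mean over all arrays. The 10 genes and the 13 lists were chosen with earlier results of these data known. Of the 115 list genes, 106 have a probe set of 1 symbol; the others are not analysed here.

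Differences were tested two-sided with limma 3.58.1 (lmFit, eBayes) in R 4.3.3, without a block, and p-values were adjusted by Benjamini-Hochberg over the 13909 genes tested, or over all non-control probe sets where a probe set is tested by itself. Residual degrees of freedom were 4, and 8 in the fit of all 12 arrays, which tested the difference between the responses. The procedure was tested on simulated data. Besides the 10 genes and the constitutive subunits, the text names up to 4 called genes of each list and comparison, by p, and IRF1, IRF7, IRF8, RFX5 and HLA-DRA. HLA-B, HLA-C, HLA-E, PSME1, PSME2, HLA-DOB, ERAP1 with the inhibitor and CD1D with the inhibitor were added after their values were seen. Replicate numbers did not pair the arrays: the deviations of same-numbered arrays from their group means correlated at −0.13, −0.10 and 0.23 for temperature and at −0.19, −0.60 and −0.15 for the inhibitor.

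Alternatives were a joint fit of the 12 arrays, a replicate block, the filter dropped or set at the 50th percentile, averaging the probe sets of a gene, testing each probe set by itself, quantile normalization, array weights, median centring, trend and robust eBayes, a spike covariate and leaving out each array; the leave-outs for the difference between the responses were added after seeing the data. Promoter windows, with GRCh38.p14 coordinates, come from RefSeq and were searched on both strands with Python 3.11.15.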

Additional observations from a re-analysis of the deposited data

How the results depend on the processing

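Of the counts under alternative settings, 308 stayed within 1.5 times the value reported and 38 did not. Of the values of the 10 genes and the subunit ratios, 655 kept their direction and side of the threshold, 34 changed sign, 46 lost a call, 2 gained one and 3 ratios moved by more than their spread. With the spike covariate, genes called at 40 °C were 1220 higher and 1453 lower (3007 and 2465 without it), with 1 of the 10 genes and 1 of their probe sets higher. For the inhibitor, which that fit cannot separate from the spike level, they were 52 and 184 (3568 and 2722 without it). There, 0 of the 10 genes and 0 probe sets were called in either direction. For the difference between the responses, genes called were 873 and 1073 (3208 and 2936 without it), with 0 of the 10 higher and 2 lower. For controls against 40 °C, 2 of the 39 probe sets were higher and 14 lower, against 4 and 24 without it. The share of all probe sets called in that comparison was not counted. Of all genes tested, 36.9% were called higher there and 37.9% lower without the covariate. Array weights gave 5527 genes higher with the inhibitor. The count of the 10 genes called higher with the inhibitor, 1 as reported, was 0 with the replicate block, no filter, every probe set on its own, centring, trend and robust eBayes, and array weights, and 0 to 1 over the left-out arrays. The count of probe sets higher with the inhibitor, also 1, was 3 in 1 fit of all arrays, 2 with quantile normalization or array weights, 0 with the replicate block or with trend and robust eBayes, and 0 to 1 over the left-out arrays. With the replicate block, TAP1 (−0.26, adjusted p = 0.0632) and CD74 (0.24, adjusted p = 0.11) lost their inhibitor calls and CD74 its call in controls against 40 °C (−0.20, adjusted p = 0.0758), and no other of the 10 lost one.

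Sign changes were confined to genes not called in the comparison concerned. For TAPBP they were 0.061 at 40 °C and −0.268 in the difference between the responses (called, adjusted p = 0.0325) with the mean of its probe sets, 0.013 for the inhibitor with quantile normalization and −0.16 in the difference with the spike covariate. For B2M at 40 °C they were −0.009 with quantile normalization, −0.003 with centring and −0.004 with array weights. For the inhibitor, PSMB10 was 0.032 with quantile normalization and 0.091 with the spike covariate, and CIITA −0.002 with array weights. In controls against 40 °C, TAP2 was −0.143 with the mean of its probe sets, −0.077 with centring, −0.033 under array weights and −0.054 under the spike covariate, and CIITA −0.039 with quantile normalization and −0.073 with centring. Over the left-out arrays, the ranges that crossed 0 were −0.022 to 0.028 for B2M and −0.005 to 0.125 for CIITA at 40 °C, −0.078 to 0.027 for PSMB10 and −0.028 to 0.042 for CIITA with the inhibitor, −0.045 to 0.065 for TAP2 and −0.028 to 0.102 for CIITA in controls against 40 °C, and −0.045 to 0.04 for TAPBP and −0.115 to 0.015 for CIITA in the difference. With the mean of the probe sets, the changes of the subunit ratios with the inhibitor were −0.314, −0.469 and −0.032. The causes of these shifts were not tested. With 3 arrays a group and 1 cell line, a small difference, such as those of PSMB8 at 40 °C or B2M with the inhibitor, cannot be settled here, and faint probe sets (4 of the 39) give little beyond background.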
